A study of Mus musculus with 9 samples.

Results

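The genes described here are 38 subunit genes of the glutamate and GABA receptors, taken by name from a list, out of 21887 protein-coding genes of the mouse nuclear chromosomes. The list holds 3 AMPA, 7 NMDA, 5 kainate and 1 delta receptor gene, 7 metabotropic glutamate receptor genes, 13 GABA-A subunit genes and 2 GABA-B receptor genes. CpG methylation was read by whole-genome bisulfite sequencing of punches from the nucleus accumbens, a part of the ventral striatum that takes part in reward and motivation. The mice were C57BL/6J males of 8 weeks, and the stressor was social defeat by an aggressive CD1 male on 10 days. The labels sort 9 libraries into Control (numbers 2, 3, 4, 5 and 8) and Susceptible (numbers 2, 3, 6 and 7), and the comparison asks whether methylation differs between them. All libraries carry 1 treatment text, and the sources used here do not give the handling of the Control mice or the scoring of susceptibility.

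Glutamate is the main excitatory transmitter of the brain. AMPA receptors carry fast synaptic current, NMDA receptors admit calcium when transmitter and depolarisation coincide, kainate receptors modulate transmission on both sides of the synapse, and metabotropic receptors act through G proteins. GABA, the main inhibitory transmitter, opens the chloride channels of GABA-A receptors and activates GABA-B receptors, which couple to G proteins. In the accumbens most neurons are themselves GABAergic projection neurons, and they receive glutamate from cortex, hippocampus, amygdala and thalamus. CpG-rich gene starts are usually unmethylated in mammals, while CpGs in gene bodies are usually methylated.

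Each library listed between 313475624 and 570984634 calls at CpG cytosines, every Susceptible library more than every Control library. A listed cytosine had at least 10 calls, so these sums leave out thinly covered cytosines. The union of the libraries held 19031086 CpGs, of which 5821189 were present in all 9. The level of a window is the percentage of its calls read as methylated, and bisulfite does not tell hydroxymethylation from methylation. Punches hold many cell types, so a change in the share of a cell type and a change of level within it cannot be told apart. Lists of marker genes for neurons, striatal and cortical projection neurons, oligodendrocytes, astrocytes and microglia held 0 genes that passed the test between groups. The starts of all 6 astrocyte genes were lower on average in Susceptible, where 48.4% of all starts were higher, with library medians of 43.6 to 53.2% in Control and 32.7 to 45.5% in Susceptible. Of the 10 striatal projection neuron starts 6 were higher, and library medians ran from 5.47 to 7.50% in Control and from 6.73 to 9.85% in Susceptible. Higher starts numbered 1 of 6 for microglia, 3 of 5 for cortical projection neurons, 3 of 6 for neurons and 4 of 8 for oligodendrocytes. Over gene bodies, all 6 astrocyte and all 6 microglia genes were lower on average in Susceptible, and 7 of the 10 striatal projection neuron genes were higher. Higher bodies numbered 1 of 5 for cortical projection neurons, 2 of 6 for neurons and 3 of 8 for oligodendrocytes, and made up 39.7% of all protein-coding genes. Library medians over bodies were 74.97 to 78.1% in Control and 69.4 to 77.5% in Susceptible for astrocyte genes and 80.7 to 84.6% and 78.2 to 82.2% for microglia genes. For striatal projection neuron genes they were 41.8 to 50.8% and 40.1 to 52.3%. The part of cell makeup in the results below was not tested.

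Promoter letters are shown for members that differ in level around their starts. The 250 bases before the annotated start are given for Gabra4, the member with the lowest level around its start, and Gabrr1, the member with the highest, and for Gabrp and Grm2, which lay between 20 and 80%. Sequences are from RefSeq on GRCm38.p6, the assembly also called mm10, written 5′ to 3′ on the strand of the gene, with every CG in capitals. Gria1 also lay in that range, and its promoter is not shown.
Gabra4: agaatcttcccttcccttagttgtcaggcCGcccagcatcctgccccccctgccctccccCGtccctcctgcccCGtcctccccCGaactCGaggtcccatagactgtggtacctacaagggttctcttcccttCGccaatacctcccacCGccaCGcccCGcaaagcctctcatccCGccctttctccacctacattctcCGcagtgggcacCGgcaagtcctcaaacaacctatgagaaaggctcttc
Gabrr1: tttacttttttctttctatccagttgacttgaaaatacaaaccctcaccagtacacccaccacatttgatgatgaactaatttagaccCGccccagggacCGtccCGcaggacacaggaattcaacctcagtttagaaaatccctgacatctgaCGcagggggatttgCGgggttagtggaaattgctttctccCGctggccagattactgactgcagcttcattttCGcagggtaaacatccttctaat
Gabrp: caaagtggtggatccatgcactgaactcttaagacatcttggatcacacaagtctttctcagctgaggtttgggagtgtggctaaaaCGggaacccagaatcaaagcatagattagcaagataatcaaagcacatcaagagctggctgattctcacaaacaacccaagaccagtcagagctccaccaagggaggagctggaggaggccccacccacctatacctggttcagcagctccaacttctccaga
Grm2: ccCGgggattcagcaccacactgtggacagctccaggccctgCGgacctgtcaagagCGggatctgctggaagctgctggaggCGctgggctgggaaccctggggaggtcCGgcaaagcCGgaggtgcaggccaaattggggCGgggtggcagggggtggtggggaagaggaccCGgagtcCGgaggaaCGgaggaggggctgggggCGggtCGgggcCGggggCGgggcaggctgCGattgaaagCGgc

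The Gabra4 stretch (chr5:71658309-71658558, minus strand) holds 12 CG, of which 11 were listed, and their levels over the pooled libraries ran from 0 to 7.77%. Gabrr1 (chr4:33132306-33132555, plus strand) holds 7 CG, all listed, at 77.5 to 86.8%. In Gabrp (chr11:33578958-33579207, minus strand) the only CG read 66.2% from 151 calls. The Grm2 stretch (chr9:106656110-106656359, minus strand) holds 16 CG, of which 11 were listed, at a median of 3.87% and a range of 0 to 70.0%, with as few as 10 calls at a CG. Of 32851 promoter stretches of the same length, 92.1% hold a CG, and the median number is 6. Gabra4 and Grm2 are above that median, Gabrr1 is close to it and Gabrp is below it. The median level over the stretch was 0.847% in Gabra4, 3.87% in Grm2 and 85.9% in Gabrr1, beside 66.2% at the only CG of Gabrp. Grm2 holds the most CG of the 4, and within 1000 bp of the start it read higher than Gabra4. Across the 38 members, Spearman's rho between the number of CpGs within 1000 bp of the start and their level was -0.468, with no test. Promoter entries matched 29 of the 38 members, and all 493 listed CpGs inside these 29 entries of 300 bases fell on a CG of the sequence.

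Around their starts, receptor genes were mostly unmethylated. The start window took 1000 bp on each side of the start, which came from the promoter table for 29 members and was the CpG-richer gene end for the other 9 (Gria1, Grin2a, Grin2b, Grin3a, Grik1, Grid1, Grm4, Grm5 and Gabrd). Averaged over the 9 libraries, 31 of 38 members read under 20%, which is 81.6% of them against 62.4% of the 19389 protein-coding gene starts tested. The median of the members was 5.05% and that of all genes 8.87%. Only 4 members read over 80%, which is 10.5% against 20.5% of all genes, and 3 lay between. The 31 low starts held 29 to 195 CpGs with a median of 83, and the 4 high ones 13 to 29.

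**Figure D1:**
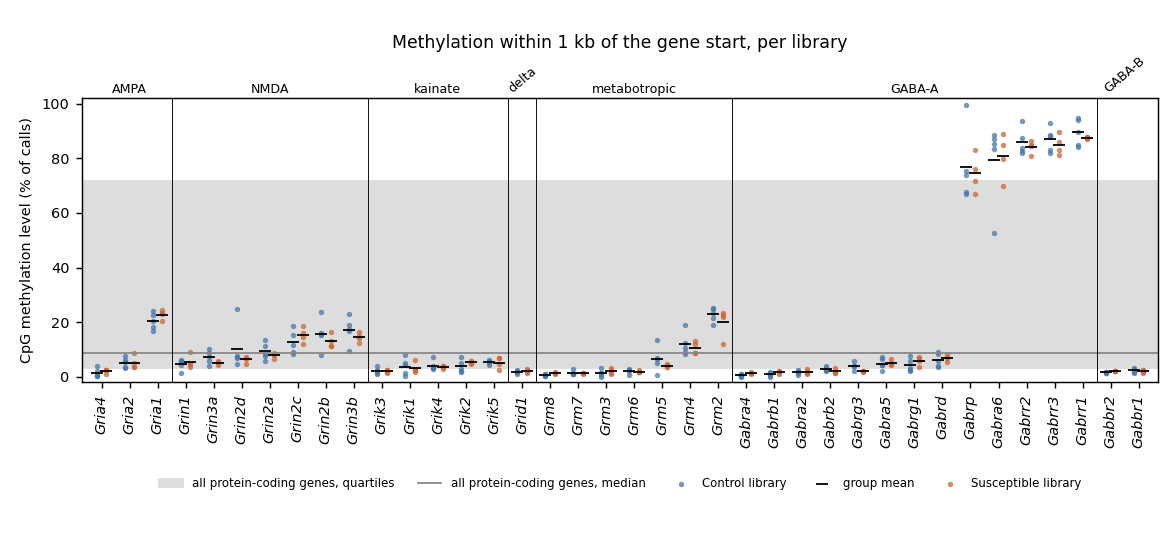
CpG methylation within 1000 bp of the start of each receptor gene (vertical axis, percent of calls), with genes grouped by receptor family along the horizontal axis. Points are libraries, short bars are group means, and the grey band and line are the quartiles and median of all protein-coding genes. Gabrp, Gabra6 and the 3 rho subunits stand apart, with no library under 52.5%, and no other gene has a library over 25.1%.

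In the per-library values that follow, Control stands in the order 2, 3, 4, 5 and 8 and Susceptible in the order 2, 3, 6 and 7. Among the AMPA genes, Gria4, a subunit of fast-gating receptors, had the lowest start, at 3.83, 0.730, 2.26, 0.394 and 0.171% in Control and 2.53, 2.47, 1.04 and 2.61% in Susceptible. Gria1, which encodes the GluA1 subunit, had the highest, at 22.6, 18.4, 24.0, 20.3 and 16.9% and 20.4, 24.3, 23.4 and 23.0%. No library of Gria1 came as low as any library of Gria4. With libraries pooled, Gria1 read 32.4% in the kilobase before the start and 4.77% in the kilobase after it. Gria2, whose subunit limits calcium entry, lay between at a mean of 5.18%. In Gria2 the annotated start lies 1392 bp inside the outer gene end.

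All 7 NMDA genes had starts under 20%, but with 9.04% their family median, taken in each library and then averaged, was the highest of the 7 groups with this window. With the outer gene end as the start, AMPA was higher, at 21.3% against 12.1%. Pooled over libraries, the kilobase before the start read 15.5 to 70.3% in the 7 genes and the kilobase after it 1.47 to 4.12%. Grin1, the subunit every NMDA receptor needs, was the lowest at 5.61, 6.26, 5.79, 1.55 and 4.42% in Control and 4.62, 4.77, 3.59 and 9.19% in Susceptible. Grin3b, a glycine-binding subunit, was the highest at 9.31, 17.3, 23.0, 18.8 and 16.9% and 12.3, 14.9, 14.0 and 16.4%. Every library of Grin3b lay above every library of Grin1. Among the glutamate-binding Grin2 subunits the means were 8.50% for Grin2d, 8.69% for Grin2a, 13.9% for Grin2c and 14.5% for Grin2b.

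Kainate starts had means of 2.09 to 5.28% over the 5 genes. Their family median of 3.90% became 14.4% with 2000 bp on each side and 11.6% from the outer gene end. The lowest, Grik3, read 2.59, 3.78, 1.95, 1.16 and 1.38% in Control and 2.31, 2.38, 1.84 and 1.42% in Susceptible libraries. The highest, Grik5, a high-affinity partner subunit, read 5.47, 5.43, 5.72, 6.11 and 4.23% and 6.85, 4.56, 2.33 and 6.82%. Libraries of these 2 genes overlapped only at the lower end, through Susceptible 6 of Grik5. Grid1, the delta subunit, which organises synapses, read 2.25, 0.902, 2.59, 1.70 and 1.70% and 2.76, 1.66, 2.48 and 1.19%, over 195 CpGs, the most of any member.

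Of the 7 metabotropic genes, 6 had starts under 20%, and their family median was 2.36%. Grm8, a presynaptic receptor that inhibits adenylyl cyclase, had the lowest, at 1.02, 0.442, 0.889, 0.814 and 0.365% in Control and 1.44, 1.78, 1.21 and 0.994% in Susceptible. Grm2, also an inhibitory autoreceptor, was highest at 23.5, 25.1, 18.9, 21.5 and 24.98% and 22.1, 23.4, 22.4 and 12.1%, and its lowest library was Susceptible 7. Its close relative Grm3 had a mean of 1.68%, and its highest library, at 3.31%, did not reach the lowest of Grm2. Grm6, known for its role in retinal bipolar cells, had an unmethylated start at 2.0%.

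The GABA-A genes divided into 8 with starts of 0.892 to 6.52% and 5 with starts of 75.7 to 88.6%. The low ones encode alpha2, alpha4, alpha5, beta1, beta2, gamma1, gamma3 and delta subunits. The high ones are the rho subunits Gabrr1, Gabrr2 and Gabrr3, best known from retina, Gabra6, known from cerebellar granule cells, and Gabrp, known mainly from tissues outside the brain. Gabra4, a subunit of extrasynaptic receptors, read 0.909, 0.311, 0.841, 0.0862 and 0.242% in Control and 1.53, 1.12, 1.75 and 1.24% in Susceptible. At the other end, Gabrr1 read 89.7, 84.9, 84.1, 94.7 and 93.9% and 87.9, 87.4, 86.9 and 88.0%. Between the 8 and the 5 genes there was a wide gap that no library bridged. Gabrp spread widely, at 74.0, 75.2, 67.8, 99.4 and 66.8% and 75.9, 71.9, 83.1 and 67.0%, and so did Gabra6, from 52.5% in Control 8 to 89.1% in Susceptible 3 on only 94 to 259 calls.

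Neighbouring genes did not always share a state. On chromosome 5, Gabrg1, Gabra2, Gabra4 and Gabrb1 lie in 1 cluster and all had low starts, with means of 5.0, 1.75, 0.892 and 1.22%. The starts of Gabra4 and Gabrb1 lie 387 bp apart on opposite strands, so their windows overlap and are not independent. On chromosome 11, Gabra6 read 80.1% while Gabrb2 read 2.44%. Both GABA-B genes were low: Gabbr2, which couples the receptor to G proteins, read 1.49, 1.29, 1.68, 1.59 and 1.81% in Control and 2.22, 2.26, 2.02 and 1.98% in Susceptible. Gabbr1, which binds the agonist, read 3.09, 2.27, 2.94, 1.80 and 1.39% and 2.43, 2.41, 1.83 and 1.52%.

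At the median of the members, the low methylation of these starts reached farther into the gene than at other genes with low starts. In the bin 1 to 2 kb inside the gene, the median over the 31 low-start members was 14.8%, against 62.7% over all 12101 genes with starts under 20%. It was 47.1 against 84.7% at 2 to 3 kb and 57.3 against 86.9% at 3 to 4 kb, and 83.1 against 87.7% at 4 to 5 kb. On the upstream side the gap was smaller, with 65.4 against 82.8% at 1 to 2 kb before the start. The stretch under 20% around the start, in steps of 200 bp, was 2200 bp wide at the median against 1600 bp. Families differed, and the median of the 7 NMDA genes, 1200 bp, was below that of all such genes. It was widest in Gabra2 at 3600 bp and reached 3400 bp in Gria2, Grm8 and Grin2a, and it was narrowest in Grin3b and Grm5 at 800 bp. Stretches of 3 kb or more occurred in 4 of the 31, which is 12.9% against 8.45% of such genes. Gabrr1, Gabrr2, Gabrr3, Gabra6 and Gabrp had no such stretch. These are descriptions with no test of the list.

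**Figure D2:**
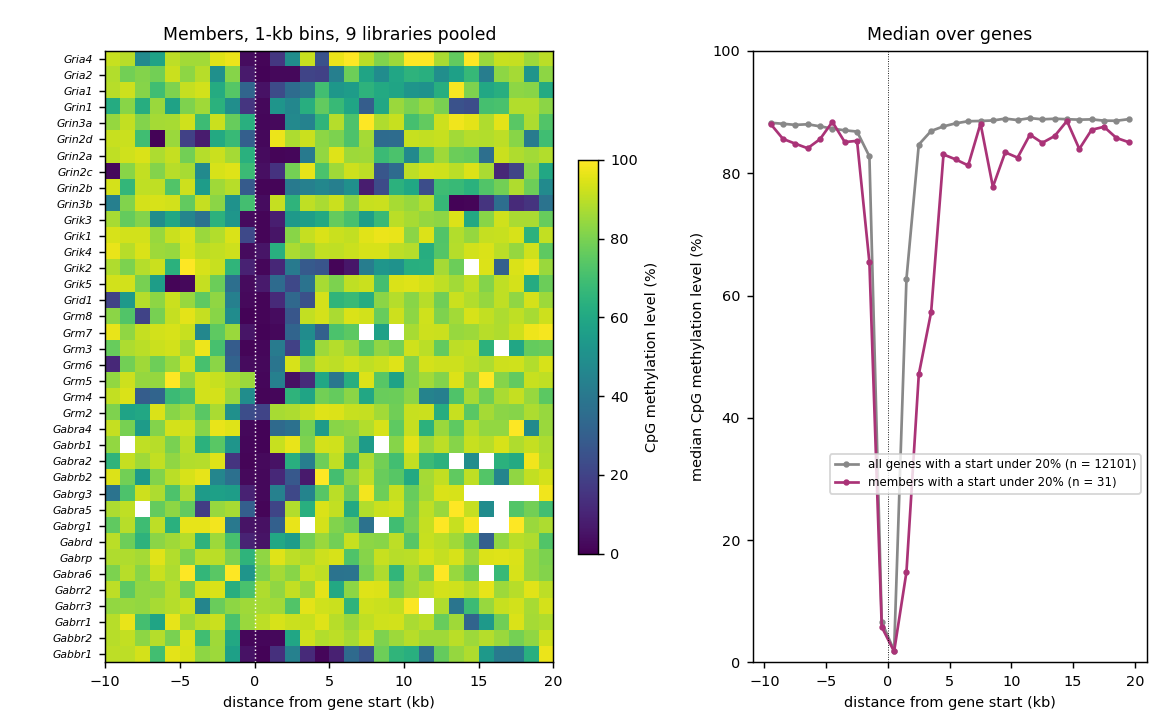
Left, CpG methylation in 1-kb bins from 10 kb before to 20 kb after the start of each receptor gene, all libraries pooled (colour, percent; white, no call; rows by family). Right, the median over the 31 members and over the 12101 genes with starts under 20%, by distance from the start in kb. The members' curve lies farthest below the other from 1 to 4 kb inside the gene and lies below it in most other bins. In the left panel, 5 rows of the GABA-A family show no dark bins at the start.

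Gene bodies, taken from one gene end to the other, were methylated at a median of 75.1% over the members and 72.4% over 20112 protein-coding genes. Members are long genes, with a median of 160.4 kb against 23.2 kb. Without the 2000 bp on each side of the start, the order turned: the members' median was 81.9% and that of 18079 genes 85.9%. Across the 38 members, Spearman's rho between length and body level was 0.324, against 0.292 across 18079 genes. Genes are not independent replicates, and these coefficients carry no test.

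Body levels were lowest in Gabbr1, at 31.2, 32.8, 33.5, 32.6 and 32.7% in Control and 32.2, 33.9, 36.2 and 38.6% in Susceptible. Next came Grin2c, at 43.6, 44.5, 42.9, 42.0 and 42.5% and 43.2, 42.5, 44.6 and 44.0%, and Grin1, at 44.8, 46.0, 44.2, 42.2 and 45.7% and 43.5, 44.7, 49.0 and 45.0%. Gabbr1 lay below both in every library. These genes span 28340, 18129 and 28011 bp, and they stayed the lowest 3 without the windows around their starts, at 41.4, 54.1 and 52.0%. Grin2d, at 54.2%, followed closely, so that 3 of the 4 lowest were NMDA subunits.

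The highest whole bodies, which include the start, belonged to genes with methylated starts. Gabrr2 read 88.5, 88.5, 89.1, 88.1 and 88.5% in Control and 89.0, 88.6, 89.0 and 88.5% in Susceptible, the narrowest spread of all members. Gabrp read 89.0, 89.2, 87.4, 88.0 and 87.9% and 88.6, 89.4, 89.1 and 86.3%, and Gabrr3 88.6, 86.8, 87.5, 89.0 and 88.2% and 88.2, 88.8, 89.0 and 86.6%. Libraries of these 3 genes overlapped one another. Gabra6, with a methylated start, had a body of only 70.7% from 73 CpGs.

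Family medians of the body, taken in each library and averaged, were 73.2% for AMPA, 67.5% for NMDA, 79.9% for kainate, 77.8% for the single delta gene, 77.0% for metabotropic, 77.4% for GABA-A and 58.4% for the pair of GABA-B genes. The GABA-B value is the midpoint of Gabbr1 at 33.7% and Gabbr2 at 83.1%, which are far apart. Within AMPA, Gria2 at 49.0% was well below Gria1 at 73.2% and Gria4 at 81.9%. Away from their starts, the medians of the members' means over libraries were 73.7, 76.2, 83.5, 80.2, 83.9, 83.4 and 63.5% in the same order. AMPA and NMDA stood lowest apart from GABA-B in both measures, with NMDA the lower over whole bodies and AMPA the lower away from the starts.

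**Figure D3:**
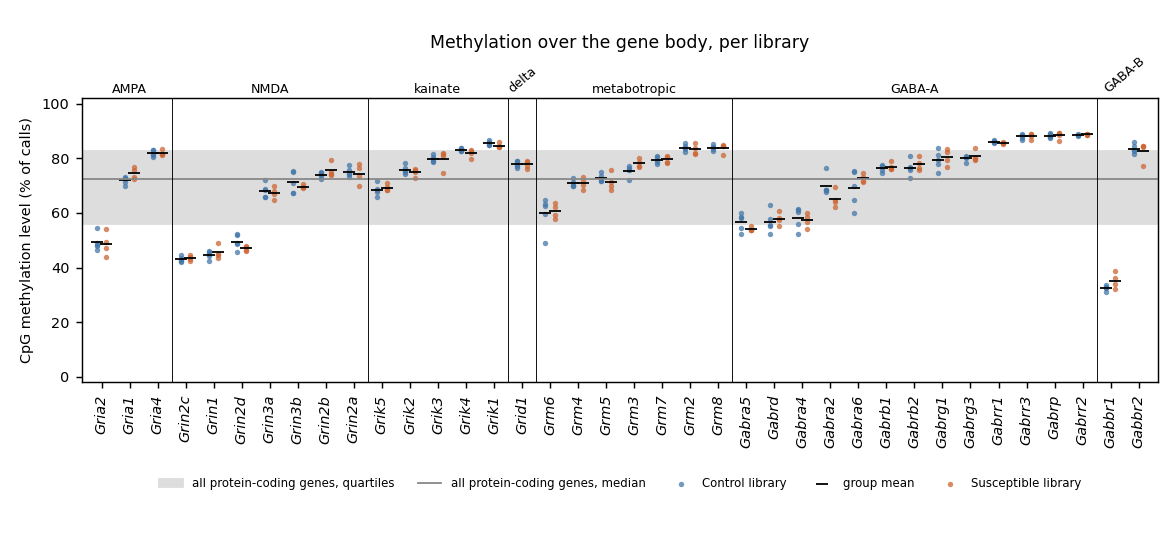
CpG methylation over the whole gene body of each receptor gene (vertical axis, percent of calls), grouped by family. Points are libraries, short bars are group means, and the grey band and line are the quartiles and median of all protein-coding genes. Gabbr1, at 31.2 to 38.6%, is the lowest, and both group means of Grin2c, Grin1, Grin2d and Gria2 and the Susceptible mean of Gabra5 also lie under the band.

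Low methylation also appeared in tiles that overlap receptor genes, far from the start used. Among 3054 member tiles of 1 kb with at least 5 CpGs and more than 5 kb from the start, 23 read under 20%, which is 0.753% against 0.776% of such tiles in all protein-coding genes. At the outer 5′ end of Gabra5, 80957 bp before the start used, the tile inside the gene read 2.62% (chr7:57590001-57591000). The next tile, at 0.651% (chr7:57591001-57592000), lies mostly outside the gene, with 16 bases in it. In Gabrb1, tiles at 1.43 and 1.28% lay 42.6 to 43.6 kb inside (chr5:71700001-71702000), next to a tile at 10.9% that holds a further annotated start. Grik4 held a tile of 60 CpGs at 1.32%, 46.9 kb inside the gene (chr9:42897001-42898000). Grik2 held a pair at 1.95 and 2.74% 5.25 and 6.25 kb inside, and Grid1 held 1 tile at 6.62%. The last kilobases of Grin1, Grin2c, Grin2d, Grik5 and Grm4 were low as well, with 13.4% in Grin1, 5.99% in Grin2c and 7.50% in Grin2d. The Grin1 tile lay 743 bp from the start of another gene, Grin1os, and the Grin2d tile 2212 bp from that of Grwd1. From the last tiles of Grin2c, Grik5 and Grm4 the nearest other gene start was 22050 bp or more away. The part of neighbouring starts was not tested. The gene table gives bounds and no exons, so whether these tiles are exonic is not stated.

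Methylation at receptor gene starts did not differ detectably between Control and Susceptible. In the quasi-binomial model fitted across all genes, 0 of 38 member starts passed a Benjamini-Hochberg adjusted p of 0.05, and 0% of all gene starts did. The limma alternative also called 0. At an unadjusted p under 0.05 there were 3 members, 2 higher and 1 lower in Susceptible, which is 7.89% against 4.86% of all starts, and limma gave 3. Groups did not overlap in 2 members, Gabra4 and Gabbr2, against 1.93% of all starts. The median standard error of a member's difference, from the spread between libraries, was 1.20 points. Changes smaller than that were not detectable at most members, and changes several times the standard error could go uncalled. Gabra4 differed by +0.933 points with a standard error of 0.219 points and did not pass adjustment.

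The smallest unadjusted p belonged to Gabra4. Control libraries averaged 0.478% ± 0.372 (SD, n = 5), and Susceptible libraries averaged 1.41% ± 0.283 (SD, n = 4). The difference was +0.933 points (adjusted p 0.936), and Susceptible libraries ran from 1.12 to 1.75%, above the Control range of 0.0862 to 0.909%. Gabrg3, a gamma subunit, averaged 3.96% ± 1.32 (SD, n = 5) in Control. Its Susceptible mean was 2.08% ± 0.209 (SD, n = 4), and the difference was -1.88 points. Its Control libraries read 2.14, 3.82, 3.93, 5.86 and 4.03% and its Susceptible libraries 1.79, 2.27, 2.09 and 2.16%, and only Control 2 fell within the Susceptible range. With CpGs present in all 9 libraries the Gabrg3 difference was -0.656 points and that of Gabra4 +0.594 points. Grm8 differed by +0.649 points and overlapped through Control 2 and Susceptible 7.

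Next in order were Grin3a and Gabbr2. Grin3a, a subunit that lowers calcium entry through NMDA receptors, read 10.3, 8.56, 5.68, 4.08 and 7.32% in Control and 5.33, 5.83, 5.26 and 4.21% in Susceptible, a difference of -2.02 points. Leaving out a library gave Grin3a differences from -2.80 points without Control 5 to -1.25 points without Control 2, its highest library. The difference was -3.01 points without Control 5 and 8, -0.739 points with at least 20 calls at a cytosine and -0.398 points with CpGs present in all 9 libraries. Gabbr2 differed by +0.549 points without overlap, and its standard error was 0.110 points, the smallest of the members. Gabra4, Grm8 and Gabbr2 read 2.26% or less in every library, and other low starts were higher in Susceptible too. Library medians over the lowest 1939 gene starts of the genome averaged 1.10% ± 0.0710 (SD, n = 5) in Control. In Susceptible these medians averaged 1.35% ± 0.0866 (SD, n = 4). Mitochondrial CpGs, usually taken as unmethylated, averaged 3.06% ± 0.513 (SD, n = 5) over Control libraries, and the Susceptible average was 12.4% ± 3.01 (SD, n = 4). The part of this shared shift in the receptor differences was not tested. With windows of 2000 bp on each side, the differences of Gabra4, Grm8 and Gabbr2 turned negative.

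Gene bodies gave the same count. Again 0 of 38 members passed adjustment, as did 0% of all bodies, and limma called 0. At an unadjusted p under 0.05 there were 3 members, 2 higher and 1 lower, or 7.89% against 5.11% of all bodies, and limma gave 0. No member body had groups without overlap, against 1.61% of all bodies. The median standard error was 1.24 points, and differences ran from -4.82 to +3.65 points.

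Gria1, on chromosome 11, had the smallest p, with 71.5, 72.5, 73.2, 73.0 and 69.9% in Control and 73.3, 72.6, 77.0 and 75.7% in Susceptible. The Control mean was 72.0% ± 1.35 (SD, n = 5) and the Susceptible mean 74.7% ± 2.06 (SD, n = 4). They differed by +2.65 points (adjusted p 0.961). Susceptible 2, 6 and 7 lay above all Control libraries, the first by a narrow margin, and Susceptible 3 lay among them. Without Susceptible 6 the difference was +1.88 points, with an unadjusted p of 0.0617. Grm3 read 76.5, 77.0, 75.8, 72.0 and 75.9% and 77.3, 76.6, 80.1 and 78.7%, a difference of +2.75 points. Control 5 was its lowest library, and without it the difference was +1.89 points.

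Gabra2, an alpha subunit of synaptic receptors, went the other way, at 67.6, 68.5, 68.4, 68.5 and 76.4% in Control and 64.0, 62.3, 69.3 and 64.6% in Susceptible. The difference was -4.82 points, Control 8 stood well above the other Control libraries, and Susceptible 6 lay within the Control range. Without Control 8 it was -3.19 points, without Susceptible 6 -6.25 points and with at least 20 calls at a cytosine -7.90 points. Without the 2000 bp after the start it was -1.40 points, and it was +0.161 points when only CpGs present in all 9 libraries were used. Grik4, a kainate partner subunit, read 82.6, 83.1, 82.6, 83.9 and 83.6% and 82.6, 81.97, 83.0 and 79.7%, a difference of -1.34 points, with Susceptible 7 the lowest library. Without Susceptible 7 it was -0.637 points, and with CpGs present in all 9 libraries -0.414. Grin2d read 45.6, 49.2, 52.2, 51.9 and 48.8% and 47.7, 46.5, 48.0 and 46.2%, a difference of -2.43 points, and only Control 2 lay below the Susceptible libraries. With CpGs present in all 9 libraries that difference was -0.0347 points. Among the remaining members, body differences ran from -2.48 points in Gabra5 to +3.65 points in Gabra6.

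**Figure D4:**
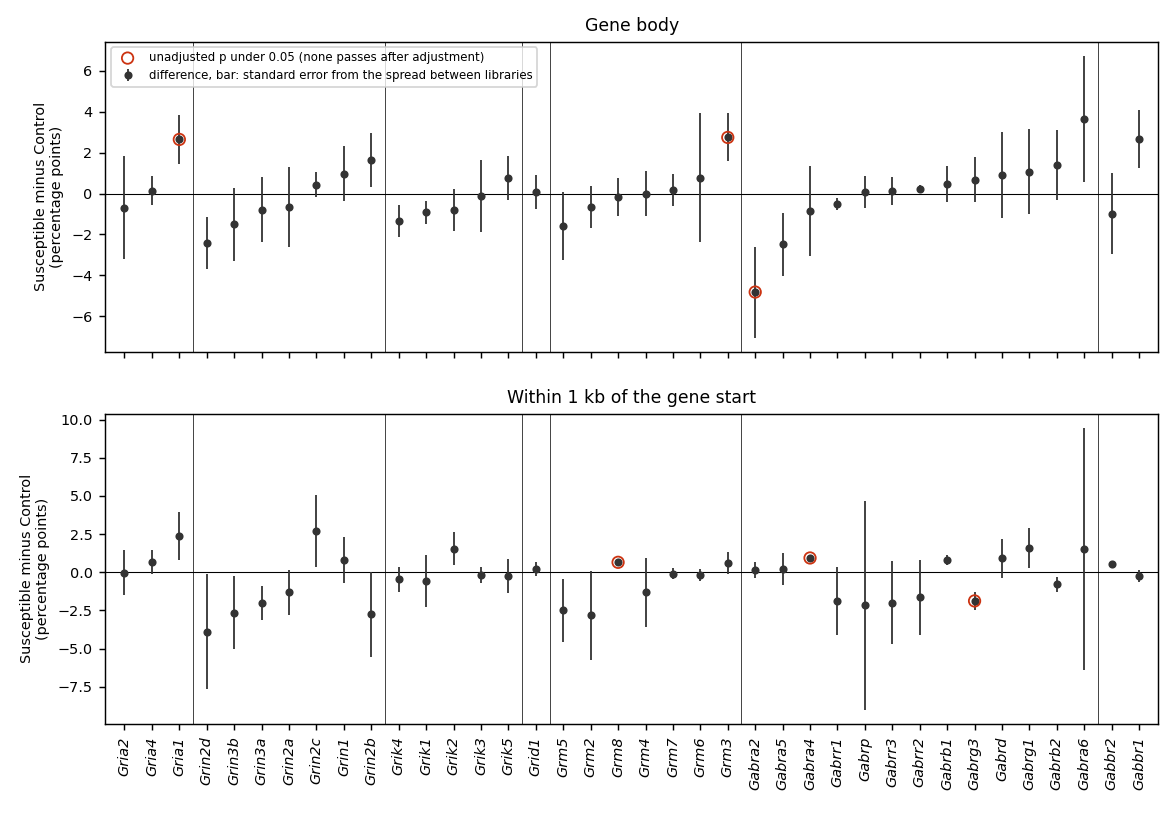
Susceptible minus Control difference of each receptor gene in percentage points, over the gene body (top) and within 1000 bp of the start (bottom), in the same gene order by family. Bars are standard errors from the spread between libraries, and red rings mark an unadjusted p under 0.05. The ringed genes are Gria1, Grm3 and Gabra2 for bodies and Gabra4, Gabrg3 and Grm8 for starts, and none passes after adjustment.

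A change in part of a long gene could be diluted in its body, so 1-kb tiles were tested too. Of 3334 member tiles, 0 passed adjustment, as did 0% of 1042249 tiles in the genome, and limma called 0. At an unadjusted p under 0.05 there were 144 member tiles, or 4.32% against 4.38%, and limma gave 82. Groups did not overlap in 50, or 1.5% against 1.56%. The members thus held no more such tiles than the genome at large. Of the 144, 98 were higher and 46 lower in Susceptible, whereas the genome split into 22767 higher and 22863 lower.

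That imbalance changed with the libraries and the model. Without Susceptible 6 there were 85 of 3344 member tiles, 40 higher and 45 lower, and the share over the genome fell as well, to 2.84%. Without Susceptible 7 the imbalance was larger, with 116 higher and 24 lower. With limma on all libraries, 42 member tiles were higher and 40 lower, and the genome share was 3.25%. Over bodies, Susceptible 6 was above the mean of libraries in 33 of 38 members and the highest library in 13. Tiles at an unadjusted p under 0.05 made up 7.07% in Gria1, 4.84% in Grin2b and 6.08% in Grik1, against 4.38% of all tiles. These genes were picked after their counts were seen. Of the other members, Grid1 had 11 higher and 3 lower, Gabrg3 6 and 0, and Grik4 8 and 13. The tiles leaned upward in Gria1, with 13 higher and 1 lower of 198, and in Grin2b, with 15 higher and 0 lower of 310. Without Susceptible 6 these were 5 and 0 in Gria1 and 5 and 1 in Grin2b, and without Control 8 they were 8 and 0 in Gria1. Grik1 leaned downward, with 0 higher and 9 lower of 148, with 6 lower without that library and with 5 lower without Control 8 or without Susceptible 7.

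**Figure D5:**
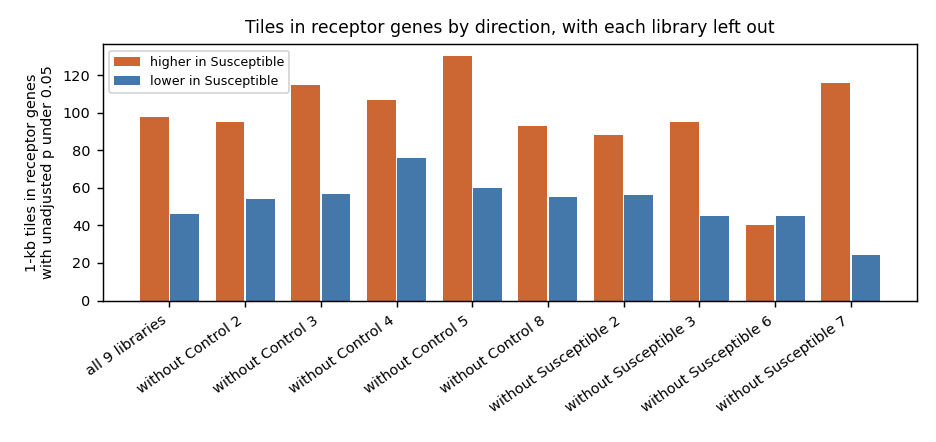
Number of 1-kb tiles in receptor genes with an unadjusted p under 0.05 (vertical axis), higher (orange) or lower (blue) in Susceptible, with all 9 libraries and with each library left out in turn. With all libraries 98 are higher and 46 lower, and without Susceptible 6 the counts are 40 and 45.

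The 3 member tiles of smallest unadjusted p lay in Gabbr1, Gabrg3 and Grik4, each with an adjusted p of 0.997. In Gabbr1 the tile (chr17:37064001-37065000) lay 18.5 kb inside the gene and read 50.4, 60.2, 60.6, 40.2 and 48.2% in Control and 68.9, 65.9, 81.5 and 75.2% in Susceptible, a difference of +20.97 points. The Gabrg3 tile (chr7:57295001-57296000), 91.7 kb inside, read 74.8, 69.1, 47.6, 71.2 and 60.8% and 83.0, 84.9, 94.0 and 91.8%, or +23.7 points on 7 CpGs. In both tiles the Susceptible libraries were all higher than the Control libraries. The Grik4 tile (chr9:42924001-42925000), 19.9 kb inside, read 71.3, 76.6, 78.4, 74.8 and 68.5% and 67.8, 60.8, 59.1 and 66.5%, or -10.4 points, with every Susceptible library lower.

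A list of 43 auxiliary subunits, scaffolds, transporters and synthesis enzymes of glutamate and GABA transmission had 0 genes called at starts and 0 over bodies. At starts 2 were higher and 1 lower at an unadjusted p under 0.05, against 4.86% of all starts. Homer1, a scaffold of metabotropic receptors, differed by +0.726 points and Cnih2, an AMPA auxiliary subunit, by +1.61 points. Their mean start levels were 1.19% and 4.28%. Homer1 thus lay among the lowest 1939 gene starts, whose library medians were higher in Susceptible, and the part of that shift was not tested. Slc6a11, a GABA transporter of astrocytes, differed by -3.47 points. Over bodies there were also 2 higher and 1 lower, against 5.11% of all bodies. The AMPA auxiliary genes Cacng4 and Cacng2 differed by +3.21 and +1.60 points, and Gphn, the scaffold of inhibitory synapses, by -3.81 points. The median start level of the list was 5.01% and its median body level 61.5%, lower than the 75.1% of the receptors. Whole bodies include the starts, gene length was not matched, and the list was not compared without its starts.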

How the data were processed

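Whole-genome bisulfite data of 9 nucleus accumbens libraries (5 Control, 4 Susceptible) were used, each said by its label to be a separate sample. Per the submitters' processing notes, Bismark, Bowtie and Picard were used with build mm10, and their versions and roles were not stated there. The deposited files list, per CpG cytosine, the count of calls and the percent of C and of T. No cytosine with under 10 calls is listed. The authors' count times percent gave whole methylated calls within the rounding of the percent, and the strands were added. Gene bounds and starts came from RefSeq tables (GRCm38.p6). Where no start was given, the CpG-richer gene end stood in, which was the 5′ end in 82.6% of 14972 genes with known strand.

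Windows needed 3 CpGs and 20 calls in every library. A quasi-binomial logistic model with dispersion moderated as in limma was fitted over all gene bodies, starts or 1-kb tiles, with Benjamini-Hochberg adjustment over each. It was tested on simulated data, and its moderation was checked against limma 3.58.1. Python 3.11.15, numpy 2.4.6 and scipy 1.17.1 were used. Standard errors come from the spread between libraries, which may in part be technical. Intervals were not computed for single libraries, since repeated reads of 1 molecule are counted apart. The labels give no batch. Values per library are given for the highest and lowest start of each family, starts of 20 to 80%, the 3 lowest and 3 highest bodies, the 5 smallest p in each window and the 3 smallest among tiles. Members named beyond these were chosen after their values were seen. The members and lists were chosen with earlier results of these data known. Alternatives were a minimum of 20 calls, CpGs listed in all 9 libraries with equal weight, each library left out, Control 5 and 8 left out, limma on logit levels, a replicate block, no window filter, other window sizes and, added after seeing the data, the outer gene end as the start.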

Additional observations from a re-analysis of the deposited data

Results flagged for a closer look

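Each member's start and body levels, family medians and the 3 named tiles were screened for a library far from the rest of its group. The gap was weighed against the range of the group, so it can be small in points. Such a library was found in 18 of 178 groups of libraries. Chance alone flags about 1 in 20 groups. The libraries were Control 5 and Susceptible 7 with 5 each, Susceptible 6 with 4, Control 8 with 2, and Control 3 and Susceptible 3 with 1 each.

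At gene starts, Control 5 stood above the other Control libraries in Gabrp at 99.4%, Grik4 at 7.12%, Grin2d at 24.8% and Grm7 at 2.76%, and Control 8 stood below them in Gabra6 at 52.5%. Susceptible 6 was the low library of Gria4 at 1.04%, and Susceptible 7 that of Grm2 at 12.1%. The NMDA median at starts was high in Control 3, at 13.5%.

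Over gene bodies, Susceptible 7 was far below its group in Gabbr2 at 77.1%, Grik3 at 74.8% and Grm8 at 81.4%, and in the kainate median at 75.1%. Susceptible 6 was the high library of Gabra5 at 55.4%, Gabrg3 at 83.7% and Gria4 at 83.4%. In Gabra5 the other Susceptible libraries read 53.9, 53.8 and 53.7%, and Control libraries ran from 52.1 to 60.1%. Control 8 was high in Gabra2 at 76.4%, Control 5 was low in Grm3 at 72.0%, and Susceptible 3 was high in Grin3b at 70.5%.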

How the results depend on the processing

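Counts of 0 receptor genes or tiles past adjustment held under all alternatives run, and of 214 alternative values of the named differences 210 kept their direction. The exceptions were the start differences of Gabbr2 (-0.535 points), Gabra4 (-0.272) and Grm8 (-0.135) with 2000 bp on each side, and the body of Gabra2 (+0.161) over CpGs listed in all 9 libraries. The lowest adjusted p of any named difference was 0.665. In the whole genome, leaving out 1 library gave 0 to 1 called tiles, the 1 without Control 4.

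Members at an unadjusted p under 0.05 numbered 1 to 5 for bodies and 1 to 5 for starts with a library left out, and 85 to 190 for tiles, where all features gave 4.205 to 6.30%, 3.61 to 6.08% and 2.84 to 5.37%. For bodies they were 0 with limma (4.52% of all bodies) and 0 without Control 5 and 8 (4.92%). For starts there was 1 with 2000 bp (4.97%). For tiles they were 82 with limma (3.25% of all tiles), 282 of 6069 without a filter (4.69%) and 54 of 1491 with 20 calls at a cytosine (4.71%). Numbers 2 and 3 occur in both groups, but same-numbered libraries did not deviate together over tiles (correlations of 0.0258 and -0.0171). With the replicate block, fitted on those 4 libraries, starts gave 1 member, bodies 3 and tiles 164 (5.34, 4.18 and 4.83% of all), and 0 passed adjustment. On these 4 libraries the differences were +0.952 points for the body of Gria1, +0.217 for Grm3, -0.528 for Grik4, -0.265 for Grin2d, -0.952 for the start of Gabrg3, -3.83 for Grin3a and +0.845 for Gabbr2, and +12.1 and +12.01 for the tiles in Gabbr1 and Gabrg3.

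Family levels moved beyond the spread between libraries under these settings. With 500 bp, starts read 1.43% in AMPA, 5.38% in NMDA, 2.56% in GABA-A genes (12 of the 13 measured) and 1.26% in GABA-B genes. With 2000 bp they read 15.4% in NMDA, 14.4% in kainate, 6.35% in delta, 5.46% in metabotropic, 13.2% in GABA-A and 6.21% in GABA-B genes. From the outer gene end they read 21.3% in AMPA, 12.1% in NMDA and 11.6% in kainate genes. CpGs listed in all 9 libraries gave starts of 1.57% in AMPA, 1.56% in metabotropic, 3.41% in GABA-A (12 of 13) and 2.504% in GABA-B genes, and bodies of 62.7% in NMDA and 74.3% in metabotropic genes. With 20 calls, bodies read 65.0% in NMDA and 57.1% in GABA-B genes. Without the 2000 bp after the start they read 76.0% in NMDA, 82.4% in kainate, 80.2% in delta, 83.9% in metabotropic, 82.7% in GABA-A and 63.5% in GABA-B genes. The minimum of 10 calls per cytosine before deposit leaves thinly covered CpGs out, and windows such as the start of Gabra6 rest on few calls.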

Other observations

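Libraries differed in how often they were extreme among the receptor genes. At starts, Control 5 was the highest library in 12 members and the lowest in 11, and Control 8 was the lowest in 12. Control 5 also had the fewest listed cytosines, 13446563, and Control 8 the next fewest, 16088027. Over bodies, Susceptible 6 was the highest in 13 members and the lowest in 0, and Susceptible 7 was the lowest in 10. The median deviation of the members' bodies from the mean of libraries was +1.33 points in Susceptible 6 and -0.821 in Susceptible 7, against +0.536 and -1.22 over all protein-coding genes.

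With each gene cut into 10 equal parts, the part at the start read 38.3% at the median of the receptor genes against 29.8% over all protein-coding genes. Receptor genes are longer, with a median of 160.4 kb against 23.2 kb, so their first part reaches farther beyond the start. Within 1000 bp of the start their median was the lower one, at 5.05 against 8.87%. In each of the other 9 parts the receptor genes were lower. The values were 81.2 and 84.3% in the part next to the first and 84.6 and 87.3% in the last. In the part next to the first, GABA-B genes read 45.7%, NMDA genes 65.0% and GABA-A genes 84.3%.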
